A study of Mus musculus with 8 samples.

Results

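Broad H3K4me3 domains were defined in wild-type (wt) pancreatic islet-like endocrine cells (PILECs) as runs of strong H3K4me3 signal of 4 kb or more. The genome was cut into 200-bp windows, each ChIP-Seq tag was placed at the middle of its 250-bp fragment, windows with 11 or more tags were kept, and kept windows separated by at most 400 bp were joined. On the 19 autosomes and outside the 4 Hox clusters, which were left out, 540 of the 11885 runs of 1 kb or longer reached 4 kb. These 540 domains are described here, and the 11345 shorter runs of 1 kb to under 4 kb, called the other enriched regions, stand beside them. The domains were chosen by tag number in the wt PILEC library, so their width and level in that library, and every ratio against it, are descriptions and carry no test.

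The mouse embryonic stem cells (mESCs) were the wt line TC-1 and the Men1-ko (menin-null) line 3.2N, both of 129S6/SvEvTac background and freed of feeder cells before use. Each line was differentiated in vitro into PILECs, so that wt mESCs, menin-null mESCs, wt PILECs and menin-null PILECs each gave 1 H3K4me3 library and 1 input library. Menin is the product of Men1 and part of complexes that methylate histone H3 at lysine 4, and the comparisons ask where this mark changes without it and during differentiation. Each genotype is 1 cell line and each condition 1 library, so a difference between genotypes cannot be told apart from a difference between lines or between libraries, and no p-value is given.

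The H3K4me3 libraries held 18773635 tags in wt PILECs, 17682677 in menin-null PILECs, 2432377 in wt mESCs and 3517028 in menin-null mESCs. Over exons 3 to 8 of Men1 (chr19:6336725-6338961, mm9) the inputs of wt PILECs and wt mESCs held 22 and 17 tags and both menin-null inputs held 0, which allows up to 3 tags in each. The paper assessed the PILECs by RT-PCR of islet genes, by NeuroD1 protein and by C-peptide staining. Breadth of H3K4me3 is another measure than expression and does not decide the label. None of the 16 placed genes for islet hormones and secretion had a start in a broad domain, and 12 of them lay in no enriched region. A start in a broad domain was found for 3 of 20 islet and pancreas transcription factors (Pax6 and Sox9 among them) and 6 of 18 neural genes. The share among all genes was 2.74%.

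H3K4me3 marks the start sites of active and poised genes, and at most of them it covers a narrow stretch around a CpG island. At a minority of genes the mark spreads over several kilobases into the transcribed region. Such broad domains are known from many cell types at genes for transcription factors and regulators of development that help to set a cell's identity. MLL1, MLL2, SETD1A and SETD1B are among the enzymes that place the mark, and menin is a subunit of the MLL1 and MLL2 complexes.

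The 7 stretches of 300 bases printed here show what lies under the domains, each printed from the mm9 plus strand in lower case with CpG dinucleotides in capitals. They were picked for genes that recur in the results. For Pou3f2, a POU transcription factor of neural cells with the widest single-gene domain in this set (chr4:22404401-22419400, 15.0 kb), both the strongest window outside annotated untranslated regions and the window with the fewest CpGs are given. The strongest window overlaps the coding sequence and holds 15 CpGs. The CpG-poor window, between genes and 2179 bp from the nearest start, holds 0, and its 300 bases had 45 tags in wt PILECs.
Pou3f2, strongest window, chr4:22414151-22414450: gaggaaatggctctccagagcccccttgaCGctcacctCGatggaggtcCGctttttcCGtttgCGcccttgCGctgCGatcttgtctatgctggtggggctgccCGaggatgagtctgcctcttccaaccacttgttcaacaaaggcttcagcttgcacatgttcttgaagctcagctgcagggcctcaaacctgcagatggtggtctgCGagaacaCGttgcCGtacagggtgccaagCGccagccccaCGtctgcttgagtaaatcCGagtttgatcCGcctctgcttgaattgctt
Pou3f2, CpG-poor window, chr4:22413151-22413450: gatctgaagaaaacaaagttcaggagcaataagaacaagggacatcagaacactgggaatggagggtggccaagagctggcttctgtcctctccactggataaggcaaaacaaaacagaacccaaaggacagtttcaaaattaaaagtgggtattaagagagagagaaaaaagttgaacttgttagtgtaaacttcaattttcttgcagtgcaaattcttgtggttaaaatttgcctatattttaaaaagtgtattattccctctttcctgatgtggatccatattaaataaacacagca

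The second pair contrasts a domain that was strong in both stages with one that was nearly absent from mESCs. The Sox2 stretch overlaps the coding sequence of this transcription factor of stem cells and neural progenitors and holds 27 CpGs, and its level was 8.79 RPM (tags per 1000000 tags of the library) in wt PILECs and 14.4 RPM in wt mESCs. The Stmn4 stretch lies in an intron of this gene for a neuronal stathmin and holds 3 CpGs, and its level was 7.35 RPM in wt PILECs and 0.411 RPM in wt mESCs.
Sox2, strongest window, chr3:34549751-34550050: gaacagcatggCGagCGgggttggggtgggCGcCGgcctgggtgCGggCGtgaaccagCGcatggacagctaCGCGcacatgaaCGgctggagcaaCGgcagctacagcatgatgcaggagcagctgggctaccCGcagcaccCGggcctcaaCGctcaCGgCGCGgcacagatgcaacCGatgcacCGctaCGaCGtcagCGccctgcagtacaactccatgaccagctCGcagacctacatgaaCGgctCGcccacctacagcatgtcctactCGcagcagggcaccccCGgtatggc
Stmn4, strongest window, chr14:66963951-66964250: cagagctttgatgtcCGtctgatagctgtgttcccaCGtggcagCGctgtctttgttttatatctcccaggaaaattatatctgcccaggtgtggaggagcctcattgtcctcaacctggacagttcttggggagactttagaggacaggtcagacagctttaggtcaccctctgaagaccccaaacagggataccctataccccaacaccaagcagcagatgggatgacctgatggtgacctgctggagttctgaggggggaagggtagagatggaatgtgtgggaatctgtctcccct

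The third group comes from 2 of the 3 domains with the lowest menin-null to wt ratios in PILECs, and from Kdm6b, which encodes a histone H3 lysine 27 demethylase and changed little. The 2810055G20Rik stretch lies in an intron, 78850 bp from the nearest annotated start, and held 4.15 RPM in wt and 2.32 RPM in menin-null PILECs. The Igf2bp1 stretch lies upstream of this gene for an RNA-binding protein, 847 bp from its start, and held 15.2 and 9.95 RPM. The Kdm6b stretch, between genes and with 1 CpG, held 9.96 and 8.26 RPM.
2810055G20Rik, strongest window, chr16:77421751-77422050: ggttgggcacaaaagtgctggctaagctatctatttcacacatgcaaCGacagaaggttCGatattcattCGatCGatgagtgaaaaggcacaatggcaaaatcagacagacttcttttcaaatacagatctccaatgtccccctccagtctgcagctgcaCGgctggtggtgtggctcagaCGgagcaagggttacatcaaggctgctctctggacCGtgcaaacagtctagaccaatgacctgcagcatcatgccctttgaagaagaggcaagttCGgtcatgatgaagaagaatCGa
Igf2bp1, strongest window, chr11:95867951-95868250: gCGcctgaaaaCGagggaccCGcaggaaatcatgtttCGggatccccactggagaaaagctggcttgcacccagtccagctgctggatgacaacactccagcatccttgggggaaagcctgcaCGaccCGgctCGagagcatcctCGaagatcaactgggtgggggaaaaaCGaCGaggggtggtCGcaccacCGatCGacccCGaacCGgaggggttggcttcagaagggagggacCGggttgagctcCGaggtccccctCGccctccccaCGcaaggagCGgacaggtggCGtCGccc
Kdm6b, CpG-poor window, chr11:69228751-69229050: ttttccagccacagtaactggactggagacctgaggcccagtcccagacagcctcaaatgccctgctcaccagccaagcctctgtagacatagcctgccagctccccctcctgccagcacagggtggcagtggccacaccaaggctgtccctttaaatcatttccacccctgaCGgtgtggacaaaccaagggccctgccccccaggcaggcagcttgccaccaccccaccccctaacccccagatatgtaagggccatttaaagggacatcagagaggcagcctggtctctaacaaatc

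The domains were mostly just past the 4-kb limit. Their median width was 4800 bp, with the middle of the distribution between 4200 and 5600 bp, 114 domains reached 6 kb and 17 reached 10 kb. The limit cuts through a continuous distribution, since 90 domains were exactly 4 kb wide and 112 other enriched regions were 3.8 kb wide. Among runs of equal width the weakest inside and the strongest outside are given. Just inside the limit stood a domain of Lhx9 (17.7 RPM in wt PILECs, 11.3 RPM in menin-null PILECs), one of Zbtb20 (22.9 and 16.8 RPM) and one of Vgf (26.7 and 33.8 RPM). Just outside stood Pisd-ps2 (131 and 165 RPM), Rap2b (113 and 120 RPM) and Hnrnph1 (104 and 98.6 RPM).

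Broad domains were placed at gene starts, as were the other enriched regions. An annotated start lay in 515 of the 540 domains (95.4%) against 90.4% of the other enriched regions, and 504 domains held the start of a protein-coding gene. The 25 domains without a start included 20 between genes and 5 in a gene. A wide region can hold more starts by its width alone, and 151 domains (28.0%) had starts on both strands against 15.9% of the other regions. In the 364 domains with starts on 1 strand, the mark reached a median of 1460 bp upstream and 3285 bp downstream of the start used, and it reached farther downstream in 297 of them (81.6%). The start used was the annotated one with the most tags around it in both PILEC libraries together. The other regions had the same asymmetry on a smaller scale, 644 bp upstream and 1073 bp downstream, with 81.0% reaching farther downstream.

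Broad domains were close to the other regions in height. The strongest 200-bp window held a median of 8.42 RPM (quartiles 6.22 and 10.8 RPM) in domains and 8.20 RPM (5.17 and 10.7 RPM) in the other regions. A wider region has more windows from which its strongest is taken. The median density was lower in domains, 15.4 RPM per kb against 17.9 RPM per kb. CpG-rich sequence, meaning windows with GC above 50% and an observed-to-expected CpG ratio above 0.6, covered a median of 1600 bp of a domain against 800 bp of another region. Since domains are wider, the share was lower, 33.3% against 40.0%. Within the domains the 4827 CpG-rich windows held a mean of 84.5 tags in wt PILECs, and the 9668 remaining windows held 45.1 tags. The CpG-poor windows of Pou3f2 and Kdm6b printed above belong to this larger part. CpG density fell with width, from a median of 47.5 per kb in the 305 domains of 4 to under 5 kb to 33.8 per kb in the 17 of 10 kb or wider.

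**Figure D1:**
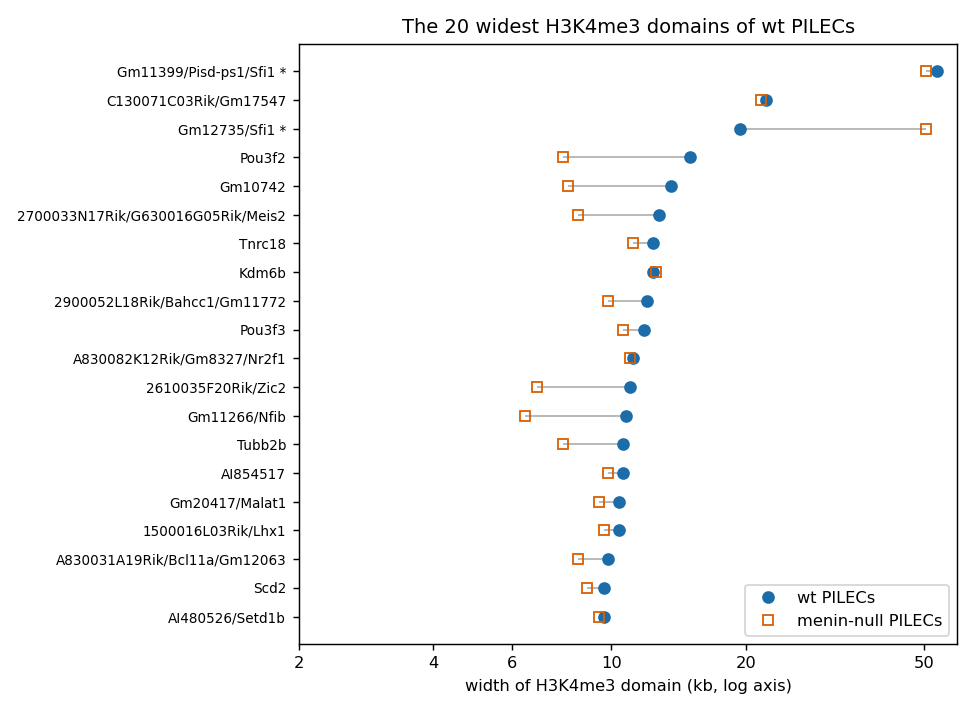
Widths in kb (log axis) of the 20 widest broad H3K4me3 domains of wt PILECs, named by the genes that start in them. Filled circles are wt PILECs and open squares menin-null PILECs, 1 library each. The menin-null value is the run by the same rule that overlaps the domain most. An asterisk marks a domain with high input signal. The menin-null value lies below the wt value for all but Gm12735/Sfi1, which joins its neighbour there, and Kdm6b.

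The 20 widest domains ran from 9.6 kb upwards. Among them a pair at Sfi1 on chr11 (53.4 and 19.4 kb) stood in sequence with strong input signal, 705 and 279 RPM in the wt PILEC input, and their widths are not read here as a property of the mark. Next came C130071C03Rik/Gm17547 (chr13:83859801-83882000, 22.2 kb), 2 noncoding or uncharacterised genes. It held 285 RPM in wt PILECs, 251 RPM in menin-null PILECs, 41.9 RPM in wt mESCs and 44.4 RPM in menin-null mESCs, so it was high in both PILEC libraries and low in both mESC libraries.

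The Pou3f2 domain of 15.0 kb held 145 RPM in wt PILECs, 122 RPM in menin-null PILECs, 33.7 RPM in wt mESCs and 35.0 RPM in menin-null mESCs. Pou3f3, its close relative, had a domain of 11.8 kb with 143, 129, 16.9 and 25.3 RPM in the same order. The Meis2 domain (12.8 kb), at a TALE homeodomain gene whose product binds DNA together with Hox proteins, held 150, 119.3, 30.0 and 29.8 RPM. In each of these 3 domains both PILEC libraries were above both mESC libraries. The same held for Nr2f1, an orphan nuclear receptor of neural development (11.2 kb, with 133, 130, 28.0 and 36.4 RPM), for Lhx1, a LIM homeodomain factor (10.4 kb, with 77.7, 96.9, 16.4 and 19.05 RPM), and for Tubb2b, a neuronal beta-tubulin (10.6 kb, with 133, 122, 39.1 and 53.7 RPM).

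Other wide domains were strong at both stages. Setd1b, the gene for an H3K4 methyltransferase, had a domain of 9.6 kb with 134 RPM in wt PILECs, 121 in menin-null PILECs, 113 in wt mESCs and 161 in menin-null mESCs, so that the stages overlapped. Kdm6b (12.4 kb) held 262, 250, 109 and 143 RPM in the same order, and Malat1, a nuclear noncoding RNA, had a domain of 10.4 kb with 198.6, 192, 123 and 117 RPM. Zic2, a zinc finger factor of the neural plate, had 11000 bp with 136, 114, 74.8 and 80.5 RPM, and Nfib had 10.8 kb with 104, 74.1, 70.3 and 73.6 RPM. At Kdm6b, Malat1, Zic2 and Nfib both PILEC libraries were again above both mESC libraries, at Nfib only narrowly in menin-null PILECs. The remaining members of the 20 were Gm10742, Tnrc18, Bahcc1, AI854517, Bcl11a and Scd2, with widths of 9.6 to 13.6 kb.

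**Figure D2:**
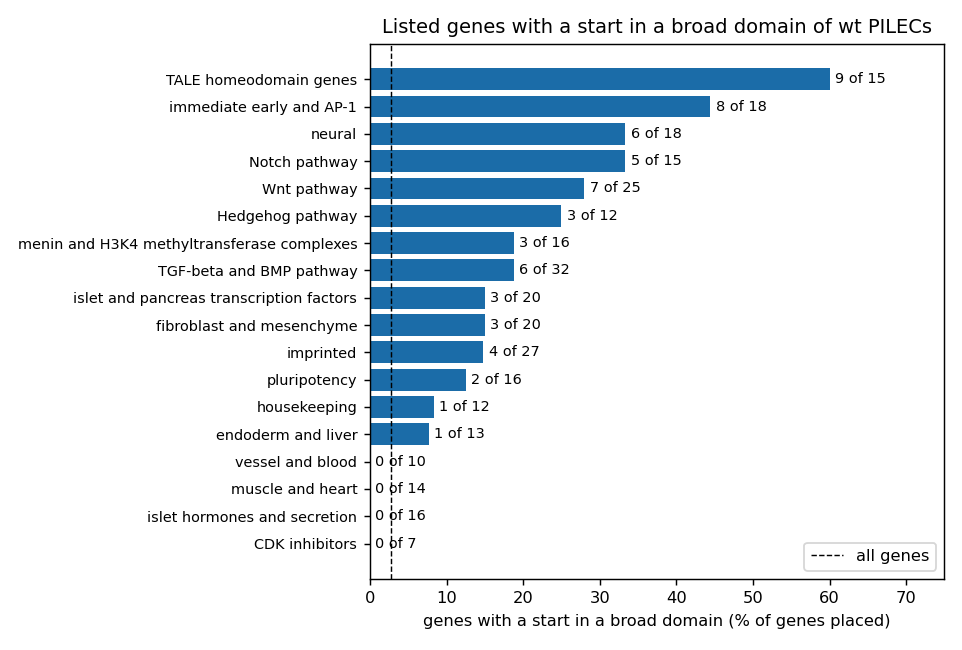
Share of the placed genes of each list (x axis, %) that have a start in a broad H3K4me3 domain of wt PILECs, with the number of genes beside each bar. The dashed line is the share among all 24930 genes, 2.74%, and the longest bars are TALE homeodomain genes and immediate early genes.

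Gene lists differed in how many of their members lay in a broad domain. Of 24930 genes on the autosomes outside the Hox clusters, 684 had a start in a domain (2.74%), or 5.52% of genes with a start in any enriched region. The counts below are descriptions, since the lists were drawn up with results of these data known. The TALE homeodomain genes, a class that includes the Meis cofactors of Hox proteins as well as the Irx and Tgif factors, had 9 of 15, among them Meis1, Meis2, Pbx3, Tgif1, Irx1, Irx2, Irx3 and Irx5. The immediate early and AP-1 genes, which respond to growth signals, had 8 of 18, the neural list 6 of 18 and the Notch pathway 5 of 15. The Wnt pathway had 7 of 25, with 4 receptors of the Frizzled family (Fzd1, Fzd2, Fzd7 and Fzd8), the feedback inhibitor Axin2, the kinase gene Gsk3b and the effector Tcf7l2. The Hedgehog pathway had 3 of 12, the receptor Ptch1, the co-receptor Gas1 and the effector Gli3. The TGF-beta and BMP pathway had 6 of 32, the receptor Bmpr2, the inhibitors Smad7, Nog, Fst and Tgif1, and the target Id2.

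In the remaining lists the share of genes in a domain ran from 0 to 18.8%. Muscle and heart genes had 0 of 14, vessel and blood genes 0 of 10, CDK inhibitors 0 of 7, endoderm and liver genes 1 of 13 (Cxcr4), and housekeeping genes 1 of 12 (Gapdh). The CDK inhibitors and housekeeping genes were marked all the same, with 6 and 11 of their genes in another enriched region. Of 16 pluripotency genes Sox2 and Klf4 were in a domain, of 20 fibroblast genes Vim, Pdgfra and Prrx1 were, and of 27 imprinted genes Igf2, Mest, Peg3 and Gnas were. Except for the lists at 0, each of these shares was above the 2.74% of all genes. The endoderm and liver list and the housekeeping list rest on 1 gene each, so nothing is read from their shares. Of all genes, 12540 lay in no enriched region, which lowers the 2.74%. Among genes with a start in any enriched region the share was 5.52%. Counted that way, the lowest of these lists above 0 was the housekeeping list with 8.33%, still 1 gene. Among the genes for menin and the H3K4 methyltransferase complexes, Mll1, Mll3 and Setd1b were in a domain (18.8%, the same share as in the TGF-beta and BMP pathway) and the other 13 of 16 in another enriched region. Families counted after the values were seen also differed. Zic had 4 of 4 genes in a domain, Ebf 3 of 4, Irx 4 of 6, Nr2f 2 of 3, non-clustered protocadherins 6 of 10, Sox 7 of 17, LIM homeobox 4 of 10, Klf 6 of 16, Nfi 1 of 4, Pou 3 of 14, histone cluster 1 genes 8 of 55 and forkhead 5 of 40. Pax had 1 of 9, the zinc finger genes named Zfp 12 of 360 (3.33%), and T-box (of 12), Dlx (of 8) and Gata (of 5) had 0. Ribosomal proteins had 0 of 72, although 69 were in another enriched region.

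The ratio of the menin-null to the wt level in PILECs was close to that of all enriched regions. Over the 540 domains the median of this ratio, on the log2 scale and from RPM, was -0.10, and over all 11885 regions it was -0.11. Menin-null PILECs had 41.1% of their tags in enriched regions and wt PILECs 44.2%, and scaling by those tags moves every ratio up by 0.11, which brings the domain median to 0.012. By RPM, domains 2-fold or more lower in menin-null PILECs numbered 3 (0.556%), against 1.03% of all regions, and 0 domains were 2-fold or more higher, against 0.0421%. With that scaling few domains were 2-fold lower or 2-fold higher. The share over all regions under it is not given, so no direction is read from them. By RPM at 1.5-fold, 23 domains were lower (4.26%, against 5.21%) and 3 higher (0.556%, against 0.438%). The ratio was below 0 for 394 domains (73.0%), against 73.7% of all regions, and above 0 for 146 (27.0%, against 26.3%). Its exact conditional binomial 95% interval, which covers counting error only, lay below 0 for 259 (48.0%, against 37.4% of all regions) and above 0 for 62 (11.5%, against 5.57%). The domains hold more tags than the other regions, which narrows their intervals.

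**Figure D3:**
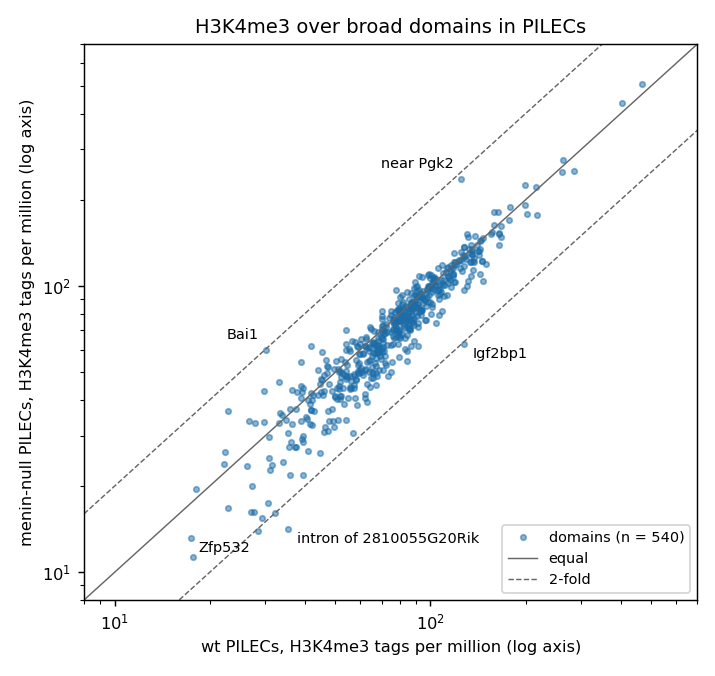
H3K4me3 level in RPM in wt PILECs (x) and menin-null PILECs (y) over the 540 broad domains, both axes logarithmic, 1 point per domain and 1 library per genotype. The solid line is equality and the dashed lines are 2-fold, and only 3 domains fall past the lower dashed line.

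The 3 domains past 2-fold were an intronic domain of 2810055G20Rik, Zfp532 and Igf2bp1. The intronic domain (chr16:77418001-77423400) held 35.4 RPM in wt PILECs and 14.2 RPM in menin-null PILECs (log2 -1.32, interval -1.53 to -1.11), and 0.822 and 0.569 RPM in wt and menin-null mESCs, which are 2 tags each. It was therefore a PILEC domain with the larger value in wt, and it kept a run of 2.8 kb of 5.4 kb in menin-null PILECs. Igf2bp1 (chr11:95864401-95869600) held 128 and 62.9 RPM in wt and menin-null PILECs (log2 -1.02, interval -1.13 to -0.92) and 124.6 and 162 RPM in wt and menin-null mESCs. Its menin-null PILEC library was the lowest of the 4. Zfp532, a zinc finger gene (chr18:65739401-65744400), held 28.4 and 14.0 RPM in PILECs (log2 -1.02, interval -1.25 to -0.80) and 44.8 and 66.8 RPM in mESCs. Scaled by tags in enriched regions, the intronic domain remained past 2-fold (-1.21) and Zfp532 (-0.92) and Igf2bp1 (-0.91) did not. With 1 tag per position and strand the 3 stood at -1.27, -0.98 and -0.93.

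Next lowest were Adm, which encodes the peptide adrenomedullin, with 32.1 RPM in wt and 16.1 RPM in menin-null PILECs (log2 -0.99), and the second domain of Lhx9, a LIM homeodomain gene, with 29.3 and 15.4 RPM (log2 -0.93). The Hedgehog effector Gli3 followed close behind, with 57.0 and 30.6 RPM (log2 -0.90). At the other end, Bai1, an adhesion G protein-coupled receptor gene, held 30.1 RPM in wt and 59.7 RPM in menin-null PILECs (log2 0.98, interval 0.84 to 1.13). A domain between genes nearest Pgk2 held 124.8 and 237 RPM (log2 0.93) in sequence with 149 RPM in the wt PILEC input. Slc32a1, the vesicular transporter for GABA, held 22.9 and 36.7 RPM (log2 0.68), Gad1, which makes GABA, held 42.0 and 61.8 RPM (log2 0.56), and the AP-1 gene Junb held 29.8 and 42.9 RPM (log2 0.53).

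Domains were narrower in menin-null PILECs. By the same rule 362 of the 540 domains (67.0%) reached 4 kb there, the median width was 4200 bp, and 414 were narrower, 73 equal and 53 wider. The median ratio of widths was 0.907, every domain kept some run, and 91 fell into 2 or more runs. With a minimum length of 3 kb there were 1627 regions, the 540 among them. Of these, 65.5% reached 3 kb in menin-null PILECs, and the median ratio of widths was 0.905. The narrowing was thus similar in that larger set, and it is not read as particular to the domains. Widths of the other enriched regions alone are not given. A choice made in 1 library favours that library, so the same rule was applied to the menin-null library first. It gave 389 runs of 4 kb or more, and 362 of these (93.1%) were also 4 kb or wider in wt PILECs. With wt PILECs thinned to the menin-null total, 517 domains were found, and with wt PILECs thinned until its enriched regions held as many tags as those of menin-null PILECs, 477 were found, of which 347 (72.7%) were 4 kb or wider in menin-null PILECs.

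Width is read at a fixed number of tags per window, so it is not independent of the level. There were 109 domains at 75% of their width or less. Of these, 70 lay in 2 or more runs in menin-null PILECs, against 21 of the other 431. Their median log2 ratio of menin-null over wt PILECs was -0.27, against -0.07 in the 431. Only 1 run gives the width of a domain, so a break in the run also counts as narrowing. Ratios were lower away from gene starts. Summed over the parts of the domains within 1 kb of a start, the menin-null to wt ratio in PILECs was -0.07 on the log2 scale, and over the parts beyond 1 kb it was -0.15. The other enriched regions gave -0.10 and -0.20 for the same parts, so the lower ratio away from starts was found there too. In both sets the ends of the regions were set in wt PILECs, which favours wt signal away from starts.

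Single examples of narrowing were chosen after their values were seen. Each width is that of 1 run, so a shorter one can come from a break and need not mean loss of the mark over that length. Pou3f2 went from 15.0 to 7.8 kb, Zic2 from 11000 to 6800 bp and Nfib from 10.8 to 6.4 kb, while Nr2f1 (11200 and 11000 bp) and Setd1b (9.6 and 9.4 kb) hardly moved. Domains at 50% of their width or less numbered 25, among them the second Lhx9 domain (4.8 to 1.0 kb), one of Zic4 (6.2 to 1.6 kb), Qk, an RNA-binding protein gene (7.8 to 2.4 kb), and Slc17a6, a vesicular glutamate transporter (7.8 to 3.2 kb). At Qk the level was lower too, with 91.2 RPM in wt and 74.5 RPM in menin-null PILECs (log2 -0.29). All 17 domains of 10 kb or more were still 4 kb or wider in menin-null PILECs.

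In the menin comparison no domain of the pathway, marker and other gene lists passed 2-fold, while Zfp532 of the Zfp family did. The 9 domains of TALE homeodomain genes had ratios of -0.49 to 0.11 on the log2 scale, the 7 of the Wnt pathway -0.35 to -0.07, the 6 of the neural list -0.43 to 0.01 and the 6 of the TGF-beta and BMP pathway -0.35 to 0.05. List medians lay on both sides of the -0.10 of all domains. The 8 domains of immediate early and AP-1 genes had a median of 0.12 (-0.20 to 0.53), the TGF-beta and BMP list -0.23, the 3 Hedgehog domains -0.28 (-0.90 to 0.02), and Cxcr4, the 1 gene of the endoderm and liver list in a domain, stood at -0.44. Meis1, a TALE gene, was the lowest of its list with 146 RPM in wt and 104 RPM in menin-null PILECs, yet its run was 8.2 kb wide in both. Mll1, which encodes a methyltransferase that works with menin, held 97.5 and 97.4 RPM.

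Against mESCs the domains stood higher in PILECs, and they did so in both genotypes. The log2 ratio of wt PILECs over wt mESCs had a median of 0.62 over the domains and 0.11 over all regions, where the wt PILEC library that chose the domains is the numerator. Domains 2-fold or more higher in wt PILECs numbered 187 (34.6%) against 10.7% of all regions, and 7 (1.3%) were 2-fold or more lower against 4.71%. Menin-null PILECs and menin-null mESCs did not choose the domains. A choice made in a PILEC library still favours signal that both PILEC libraries share, so this comparison is not free of it. In the menin-null comparison the median was 0.32 over the domains and -0.23 over all regions, with 139 domains 2-fold or more higher (25.7%, against 7.55% of all regions) and 38 lower (7.04%, against 14.2%). Relative to all regions the domains were thus 0.51 higher in wt and 0.55 higher in menin-null cells. With a minimum length of 3 kb the median in menin-null cells turned to -0.033, against -0.23 over all regions, and that in wt cells was 0.32. In such bulk samples, fewer cells with the mark and less of the mark per cell cannot be told apart.

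Of the 540 domains, 131 (24.3%) were 2-fold or more higher in PILECs in both genotypes, against 6.2% of all regions, and 7 (1.3%) were 2-fold or more lower in both, against 4.38%. No region of the 11885 passed 2-fold in opposite ways in the 2 genotypes. Both stage comparisons use separate libraries for each genotype. The 131 had a median of 35.6 CpGs per kb and the 7 a median of 62.0 per kb, with 50.4 per kb for the 168 domains within 1.5-fold in both genotypes. Wider domains were more often among those that were higher. In the menin-null comparison 2-fold was passed by 21.0% of domains of 4 to under 5 kb and 25.6% of 5 to under 6 kb. It was passed by 34.0% of 6 to under 10 kb and 64.7% (11 of 17) of 10 kb or wider. Width was measured in wt PILECs, and menin-null PILECs share much of that signal, so this order is partly set by the choice. The 17 include the pair at Sfi1 with high input.

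The 5 highest ratios included a pair of genes of neurons. Gpm6a, a neuronal membrane glycoprotein gene (chr8:56039401-56043800), held 35.4 RPM in wt PILECs, 30.6 RPM in menin-null PILECs, 0 RPM in wt mESCs and 2.56 RPM in menin-null mESCs, so that wt PILECs were at least 28.7-fold higher than the 3 tags that a count of 0 allows in wt mESCs. Stmn4 (chr14:66962601-66968000) held 44.1, 51.1, 0.411 and 1.14 RPM in the same order, and with 1 tag in wt mESCs its log2 ratio of 6.74 had an interval of 4.26 to 12.05. Both mESC libraries were near 0 at both genes. Of the 5 highest, 3 had no start, a domain between genes nearest Gm3764 (log2 6.47, 684 tags against 1), the intronic domain of 2810055G20Rik (log2 5.43) and a domain between genes nearest A130050O07Rik (log2 4.98, 64.7 RPM against 2.06 RPM).

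The 7 domains lower in PILECs in both genotypes were Junb, Trim71, Lphn1, Gse1, Ssbp4, Ier2 and Pou3f1. Junb held 29.8 RPM in wt PILECs, 42.9 RPM in menin-null PILECs, 111 RPM in wt mESCs and 142 RPM in menin-null mESCs (log2 -1.90 in wt). Trim71, which encodes an RNA-binding protein of early embryonic cells, held 47.9, 33.7, 155 and 184 RPM in the same order (log2 -1.69 in wt). In both genes each mESC library was above each PILEC library. Lphn1, an adhesion G protein-coupled receptor gene, had a log2 ratio of -1.13 in wt, Gse1 -1.11 and Ssbp4 -1.07. Another domain of Gse1 was within 1.5-fold in both genotypes. Sox2 fell short of 2-fold in wt cells, with 70.4 RPM in wt PILECs, 70.7 in menin-null PILECs, 133 in wt mESCs and 151 in menin-null mESCs (log2 -0.92 in wt and -1.09 in menin-null).

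Listed genes went both ways between the stages. Among the neural list Pou3f2, Zic1 and Tubb3 were 2-fold or more higher in PILECs in both genotypes, as were Meis1 and Meis2 of the TALE list, Vim and Prrx1 of the fibroblast list, Sox9 of the islet and pancreas list, Fzd1 of the Wnt pathway and Peg3 of the imprinted list. Tubb3, a neuronal beta-tubulin gene, held 96.8 RPM in wt PILECs, 93.9 in menin-null PILECs, 21.0 in wt mESCs and 35.0 in menin-null mESCs. Sox9 held 107, 93.7, 18.5 and 15.9 RPM, and Meis1 146, 104, 24.7 and 21.6 RPM. Both PILEC libraries were above both mESC libraries in these 3. Of the 8 domains of immediate early and AP-1 genes, 0 were 2-fold higher and 2 (Ier2 and Junb) were 2-fold lower in both genotypes, and the 5 Notch domains had a median log2 ratio of 0.03 in the menin-null comparison. Pax6, a factor of islet and neural cells, held 40.9 RPM in wt PILECs, 40.1 in menin-null PILECs, 24.7 in wt mESCs and 28.1 in menin-null mESCs.

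**Figure D4:**
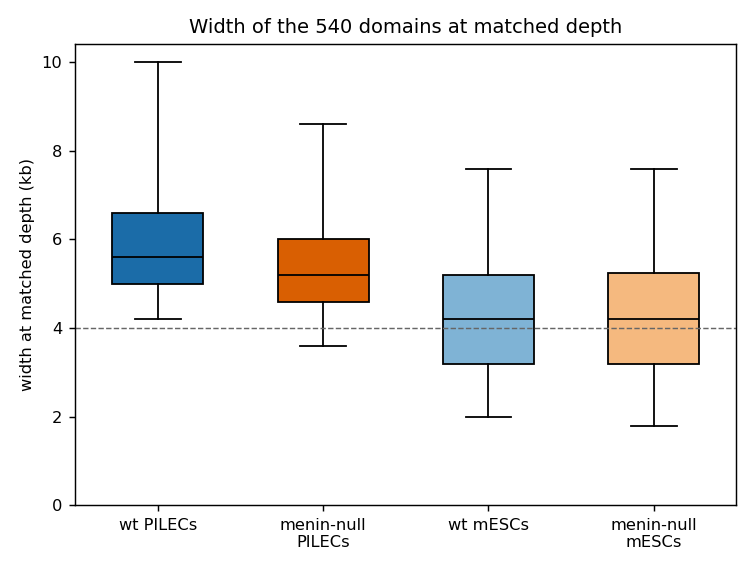
Width in kb of the H3K4me3 run at each of the 540 broad domains after each library was thinned to the same total, in the 4 H3K4me3 libraries. Boxes span the quartiles with a line at the median, whiskers run from the 5th to the 95th percentile of domains, and the dashed line is 4 kb, with medians of 5.6, 5.2, 4.2 and 4.2 kb from left to right.

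Because the mESC libraries were smaller, widths across stages were compared only after each library was thinned to 2432377 tags, with runs of 1-kb windows of 8 or more tags stepped by 200 bp. These runs are wider than those of the defining rule by construction. At this depth 530 domains (98.1%) were 4 kb or wider in wt PILECs, 502 (93.0%) in menin-null PILECs, 299 (55.4%) in wt mESCs and 312 (57.8%) in menin-null mESCs. The medians were 5.6, 5.2, 4.2 and 4.2 kb. Compared within a genotype, 441 domains were wider and 73 narrower in wt PILECs than in wt mESCs, and 409 were wider and 104 narrower in menin-null PILECs than in menin-null mESCs. No run was found in wt mESCs at 15 domains and in menin-null mESCs at 13.

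The mESCs had broad runs of their own. At matched depth wt mESCs had 1325 runs of 4 kb or more and wt PILECs 1622. Of the former 57.4% overlapped 1 of the latter, and 46.8% of the wt PILEC runs overlapped 1 of wt mESCs, so that part of the runs was shared between the stages and part was not. The order was the opposite in menin-null cells, with 1451 runs in mESCs and 1256 in PILECs, of which 47.3% and 54.2% overlapped 1 of the other stage. With the 540 domains, which come from a stricter rule, 22.6% of the wt mESC runs and 32.7% of the wt PILEC runs overlapped. Pou3f2 was 5.8 kb wide in wt mESCs at this depth, Meis2 2.8 kb, Pou3f3 2.8 kb and Nr2f1 2.8 kb, whereas Setd1b was 10.2 kb wide and Sox2 8.0 kb. Trim71, with the second lowest ratio of wt PILECs over wt mESCs, was 10.8 kb wide in wt mESCs.

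**Figure D5:**
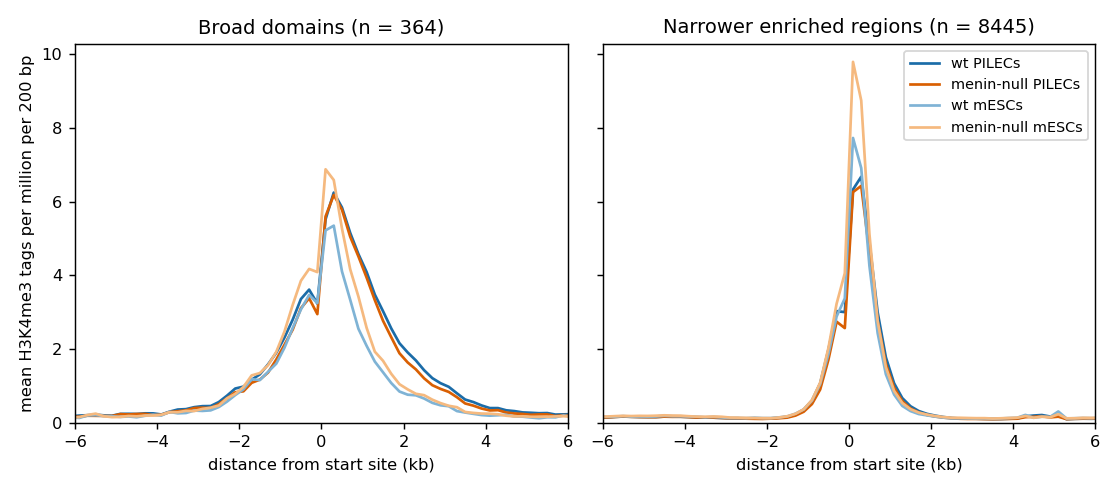
Mean H3K4me3 level in RPM per 200-bp bin (y) by distance in kb from the start site (x, positive values lie in the transcribed direction) in the 4 libraries, for 364 broad domains and 8445 other enriched regions with starts on 1 strand. At the start menin-null mESCs are the highest of the 4 lines of the domains, and from 1 to 3 kb downstream both PILEC lines lie above both mESC lines.

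In the domains the stages differed more downstream of the start than upstream. The domains were chosen by their extent in wt PILECs, which was mostly downstream. The start of each was picked by tags of both PILEC libraries. Both choices rest on PILEC signal, so this contrast between the stages is partly set by them. In the 364 domains with starts on 1 strand, the mean level in the 200-bp bin at 100 bp downstream was 5.52 RPM in wt PILECs, 5.60 in menin-null PILECs, 5.22 in wt mESCs and 6.88 in menin-null mESCs. At 1900 bp downstream it was 2.16, 1.89, 0.85 and 1.05 RPM in the same order, so that both PILEC libraries were above both mESC libraries. At 1900 bp upstream it was 0.98, 0.85, 0.91 and 0.97 RPM, and the libraries did not order by stage. Between 2 and 5 kb upstream both PILEC libraries were above both mESC libraries in 10 of the 15 bins, with a mean of 0.403 RPM per bin in wt PILECs, 0.367 in menin-null PILECs, 0.310 in wt mESCs and 0.337 in menin-null mESCs. Between 2 and 5 kb downstream they were above in 15 of 15 bins, with means of 0.833, 0.706, 0.375 and 0.421 RPM in the same order. In the other enriched regions both PILEC libraries were above both mESC libraries in 5 of the 10 bins within 2 kb downstream, against 8 of 10 in the domains, and in 2 of the 15 bins from 2 to 5 kb. From 2 to 5 kb the other regions held means of only 0.141, 0.128, 0.138 and 0.143 RPM per bin in the same order. By the rule they were under 4 kb in wt PILECs and the domains were not. The contrast between the sets at that distance is therefore largely set by the choice.

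Split at 1 kb from any annotated start and summed over all domains, the log2 ratio of wt PILECs over wt mESCs was 0.34 near starts and 1.04 beyond. The medians over domains with 50 or more tags in the part, from both libraries together, were 0.40 and 1.34. For menin-null PILECs over menin-null mESCs the sums gave -0.04 and 0.69 and the medians 0.10 and 1.18, so that near starts the sign depended on the summary. In the other enriched regions the sums were 0.02 and 0.39 in wt and -0.34 and -0.002 in menin-null cells, and the medians 0.06 and 0.83 in wt and -0.27 and 0.41 in menin-null cells. The medians beyond 1 kb rest on 3264 and 2952 of the 11345 other regions, and with the larger PILEC libraries a part can pass 50 tags through its PILEC level. In the sums, which use no such minimum, the ratio was higher beyond 1 kb than near starts. The medians had the same order, but for this reason they are not read as support. The share of a domain's tags within 1 kb of a start had a median of 67.7% in wt PILECs, 70.0% in menin-null PILECs, 81.8% in wt mESCs and 84.2% in menin-null mESCs. These shares are taken over the extent set in wt PILECs and carry the same limit.

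In mESCs the domains moved with all regions when menin was absent. The median over the domains of the menin-null to wt ratio in mESCs was 0.24 on the log2 scale, equal to the 0.24 of all regions, and scaling by tags in enriched regions lowers every ratio by 0.27 and brings the domain median to -0.021. By RPM, domains 2-fold or more lower numbered 3 (0.556%, against 1.03% of all regions), and 7 (1.3%) were 2-fold or more higher, against 1.3% of all regions. By RPM at 1.5-fold, 11 were lower (2.04%, against 3.05%) and 50 higher (9.26%, against 11.6%). Scaled by tags in enriched regions, few domains were 2-fold lower or 2-fold higher, and several of them rest on few tags. The share over all regions under this scaling is not given, so no direction is read from them. Neither library chose the domains.

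Mest, an imprinted gene expressed from the paternal allele (chr6:30686801-30691000), stood apart. It held 28.4 RPM in wt mESCs and 2.27 RPM in menin-null mESCs (log2 -3.64, interval -4.91 to -2.58, 69 against 8 tags), but 51.9 RPM in wt PILECs and 46.3 RPM in menin-null PILECs. Only the menin-null mESC library was low. The other imprinted genes in domains gave -0.09 (Peg3), -0.01 (Gnas) and 0.43 (Igf2) in mESCs. Tcfap2b, an AP-2 transcription factor gene, and Nrxn3, a synaptic adhesion gene, were both at -1.12, from levels of 6.17 and 2.47 RPM in wt mESCs, and both intervals reached above 0. Pcdh18 was at -0.85 and a domain between genes nearest Gm17618 at -0.83.

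Of the 5 highest, Gpm6a, Stmn4 and the domain over an exon of Thra rested on 1.64 RPM or less in wt mESCs. Ntrk3, a neurotrophin receptor gene, held 9.87 RPM in wt and 22.7 RPM in menin-null mESCs (log2 1.20, interval 0.53 to 1.93), and Zcchc14 held 60.4 and 133 RPM (log2 1.14, interval 0.87 to 1.41). Relative to the shift of all regions both stayed higher, at 0.94 and 0.87 with the scaling by tags in enriched regions. Their levels in PILECs were 71.2 and 67.8 RPM for Ntrk3 and 86.6 and 86.0 RPM for Zcchc14 in wt and menin-null cells.

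Input signal in PILECs did not set the domains apart. In mESCs the median input density was lower over domains than over the other enriched regions. It was 1.12 against 1.29 RPM per kb in wt and 0.964 against 1.14 RPM per kb in menin-null mESCs. The wt PILEC input had a median density of 0.513 RPM per kb over domains and 0.526 RPM per kb over the other enriched regions, and 3 domains had high input, defined as 1 input RPM or more for every 5 H3K4me3 RPM, as had 59 of the 11345 other regions. Without those 3, the median log2 ratio of menin-null over wt PILECs was -0.10, and 66.9% of domains were 4 kb or wider in menin-null PILECs.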

How the data were processed

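H3K4me3 ChIP and input DNA of wt and menin-null mESCs and PILECs were sequenced by the authors as 36-bp reads, 1 library per condition, and aligned to mm9 (NCBI37). The deposited files list 1 line per tag with its position, which is another unit than a level, and a score for each tag, deposited by the authors without a description and not used. Tags were counted as deposited, with no normalization by the authors. Levels are RPM, tags per 1000000 tags of the library, which was 2432377 to 18773635 for H3K4me3 and set the counting error.

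Runs, counts and exact conditional binomial 95% intervals were computed with scipy 1.17.1, numpy 2.4.6 and pandas 2.3.3 under Python 3.11.15, sequence was read from the mm9 genome with pyfaidx 0.9.0.4, and matplotlib 3.10.9 drew the plots. Genes were 26225 coding, lincRNA and processed-transcript genes of GENCODE vM1 with 75447 distinct starts. Where a domain overlapped several runs in another library, the run with the largest overlap was used. Scripts were tested on simulated tags. With 1 library per group, "called" means 2-fold or more, and intervals and the floor of 3 tags cover counting error only. Named genes were the 20 widest domains, the 5 lowest and 5 highest ratios of menin-null over wt PILECs, of menin-null over wt mESCs and of wt PILECs over wt mESCs, 3 runs on each side of 4 kb, genes of the lists, and Men1. Others were named after their values were seen. The domains and gene lists were chosen with earlier results of these data known. Results for some genes of the lists are not reported here.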

Additional observations from a re-analysis of the deposited data

Results flagged for a closer look

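By RPM, Igf2bp1, Zfp532 and Rara had ratios of menin-null over wt of opposite direction in PILECs and mESCs. The counting intervals of these RPM ratios were clear of 0 at both stages, and the difference between the stages was not tested. Igf2bp1 was at -1.02 on the log2 scale in PILECs and 0.38 in mESCs, and Zfp532 at -1.02 and 0.58. Rara, a retinoic acid receptor gene, was at -0.63 in PILECs (84.6 RPM in wt, 54.6 RPM in menin-null) and 0.57 in mESCs (106 and 158 RPM). The medians over all regions were -0.11 and 0.24, and scaling by tags in enriched regions left Igf2bp1 at -0.91 and 0.11 and Zfp532 at -0.92 and 0.31. No interval is given for the scaled ratios, so whether the 0.11 of Igf2bp1 is clear of 0 is not shown. For Rara no scaled ratio is given.

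There were 3 domains with strong signal in the input, a measurement apart from the H3K4me3 levels compared here. The wt PILEC input held 705 RPM over Gm11399/Pisd-ps1/Sfi1, 279 RPM over Gm12735/Sfi1 and 149 RPM over the domain between genes nearest Pgk2, against a median of 2.52 RPM over the 540 domains. Their H3K4me3 levels in wt PILECs were 468, 404 and 124.8 RPM, so the input exceeded the H3K4me3 library at the first and the third. The part of this signal in their width and ratios was not tested.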

How the results depend on the processing

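Of 281 values recomputed under another setting, 179 stayed, 99 moved and 3 turned direction. A value stayed if it lay within an interval over the domains, taken as independent, or within 1.5 times the first count. That interval holds no spread between libraries or replicates. The 3 were the medians near 0 under a scaling by tags in enriched regions, 0.012 on the log2 scale for menin-null over wt PILECs and -0.021 for menin-null over wt mESCs, and the median of menin-null PILECs over menin-null mESCs with a minimum length of 3 kb, -0.033. No replicate can be left out, since each group has 1 library. No paired analysis was possible because each group has 1 library. The smaller mESC libraries limit the ratios of domains with few tags.

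With 14 tags per window, 4 domains were 2-fold lower in wt PILECs than in wt mESCs, 1 was lower in menin-null than in wt mESCs, and 62.4% reached 4 kb in menin-null PILECs. With 22 tags per window there were 237 domains, the median of menin-null over wt PILECs was -0.071 with 1 domain lower, that of wt PILECs over wt mESCs 0.73 with 0 lower and 94 higher, that of the menin-null stages 0.43 with 12 lower and 70 higher, menin-null mESCs had 0 lower and 1 higher, 56.1% reached 4 kb in menin-null PILECs and 65.4% in wt mESCs at matched depth, and 63.0% of tags lay near a start. With gaps of at most 200 bp, 0 domains were lower in menin-null mESCs and 62.3% reached 4 kb in menin-null PILECs.

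With a minimum length of 3 kb there were 1627 domains, 12 were lower in menin-null PILECs, the wt stage median was 0.32 with 19 lower and 373 higher, the menin-null stages had 137 lower and 274 higher, menin-null mESCs had 14 lower and 19 higher, 44.3% were wide in wt mESCs and 81.6% of tags lay near a start. With 5 kb there were 235 domains, the wt stage median was 0.80 with 1 lower and 99 higher, the menin-null one 0.49 with 10 lower and 75 higher, menin-null mESCs had 3 higher, 54.0% reached 5 kb in menin-null PILECs and 60.9% of tags lay near a start. Chosen in menin-null PILECs, where 100% are wide by construction, domains had a median of -0.038 with 0 lower against wt PILECs, 22 lower in the menin-null stages and 3 higher in menin-null mESCs. Chosen in both PILEC libraries pooled, the median was -0.071 and 82.6% were wide in menin-null PILECs.

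Scaled by tags in enriched regions, 1 domain was lower and 2 higher in menin-null PILECs, the stage medians were 0.52 in wt and 0.60 in menin-null cells with 21 lower in the latter, and menin-null mESCs had 6 lower and 3 higher. Shares over all regions are not given for these counts. With input subtracted, 5 domains were lower and 1 higher in menin-null PILECs, the wt stage median was 0.77, and the median in mESCs was 0.29 with 7 lower and 13 higher. At 1.5-fold, 23 were lower and 3 higher in menin-null PILECs, 22 and 281 in the wt stages, 83 and 214 in the menin-null stages, and 11 and 50 in menin-null mESCs. Thinning wt PILECs to the menin-null tags in enriched regions, chosen after seeing the data, gave 72.7% wide in menin-null PILECs. At 6 and 12 tags per 1-kb window, 64.6% and 44.1% were wide in wt mESCs, and 39.9% and 93.2% of tags lay within 500 bp and 2 kb of a start. With 1 tag per position and strand, 1 domain was lower in menin-null PILECs, the stage medians were 0.53 and 0.20, and 2 domains were higher in menin-null mESCs. With tags moved by 75 bp, 6 domains were lower in menin-null PILECs and 5 in menin-null mESCs. The causes of these shifts were not tested, apart from the number of domains, which the settings change by construction. Leaving out the domains with high input, also chosen after seeing the data, moved 0 of 21 values.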

Other observations

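Some further domains are given with their values in PILECs and were named after these were seen. Gad2, which makes GABA, held 33.2 RPM in wt and 46.2 RPM in menin-null PILECs (log2 0.48), and Slc17a6, a vesicular glutamate transporter, held 51.1 and 34.1 RPM (log2 -0.58). Neither passed 2-fold, Gad2 did not reach 1.5-fold, and Slc17a6 lay close to the 1.5-fold limit.

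Of 10 LIM homeobox genes, a family counted after the values were seen, Lhx1, Lhx5, Lhx9 and Lmx1b had a start in a domain. The log2 ratios of menin-null over wt PILECs were 0.32 at Lhx1, 0.48 at Lhx5, -0.41 at Lmx1b, and -0.93 and -0.64 at the 2 domains of Lhx9. None of these passed 2-fold, and 1 library per genotype gives no replicate spread to set them against.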
